A study of Mus musculus with 6 samples.

Results

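The genes described here are 10 members of the fibroblast growth factor (FGF) system measured in the mouse uterus: the ligands Fgf1, Fgf2, Fgf7, Fgf10 and Fgf18, the receptors Fgfr1, Fgfr2, Fgfr3 and Fgfr4, and the carrier protein gene Fgfbp1. They were chosen by name, with earlier results of these data known, so counts of members called beside the share of all genes are a description. All 10 had a row among the 24077 genes of the single-cell table and the 30828 genes of each section table. The uteri came from 12-month-old female CD-1 mice, an outbred strain, with no genetic alteration named in the labels. Pups received a daily subcutaneous injection on neonatal days 1 to 5 of corn oil (CO group) or of diethylstilbestrol, a synthetic estrogen, at 1 mg/kg/day (DES group). DES mice were in persistent estrus and CO mice were chosen in estrus, so both groups shared that cycle stage. Single cells were captured in 1 CO library pooled from 2 mice and 1 DES library pooled from 4 mice, so no difference between the single-cell libraries had a replicate and none was tested. Spatial transcriptomics covered 4 frozen sections of 10 µm, CO A, CO B, DES A and DES B, each from 1 mouse. DES tissue for the sections was picked with adenocarcinoma present, CO B had a tissue fold, and for DES B the authors described their identification of clusters as limited.

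FGFs are secreted proteins that bind receptor tyrosine kinases together with heparan sulphate on the cell surface. FGF7 and FGF10 are classically made by mesenchyme and act on the IIIb splice form of FGFR2 in neighbouring epithelium, an exchange that drives branching, gland formation and epithelial growth, whereas FGF1 can bind every FGF receptor. FGF signalling works through adaptors and the ERK cascade and induces its own inhibitors, such as the sprouty and SPRED proteins. The libraries count transcript ends, so the IIIb and IIIc forms of Fgfr2 could not be told apart.

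The depth was 353460067 unique molecular identifiers (UMIs) in 32387 CO cells and 288919190 in 16312 DES cells, with medians of 6779 and 10153.5 UMIs per cell. The 4 sections held 1357 to 1834 spots and 9117099 to 12506177 UMIs. Levels are UMIs summed over a group of cells or spots and given as CPM, the gene's counts scaled to the total UMIs of that group, with exact Poisson 95% intervals that cover counting error only. The libraries shared 180 cell barcodes, of which 32 carried a cell type in both. The authors' cell types were used, and the 20134 CO and 6611 DES cells without one entered no cell type's level. The mesothelial groups carried 4 mesothelial markers at a summed 2343 CPM in CO and 2486 CPM in DES beside 1475 and 804 CPM of 5 epithelial markers, 3 of which are keratins that mesothelium also makes. The group labelled lymphocytes carried more summed CPM of 4 myeloid markers (3328 in CO, 8814 in DES) than of 5 lymphocyte markers (921 and 706). Stromal, endothelial, muscle and pericyte cells were nearly missing from the DES library, which held 1 stromal and 5 endothelial cells, so stromal levels under DES could be read only in sections.

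In the GENCODE M21 annotation of GRCm38, the assembly that mm10 denotes, Fgfr3 lies on the plus strand at chr5:33721674-33737068, Fgf10 on the plus strand at chr13:118669791-118792115, Fgfr1 on the plus strand at chr8:25513654-25575718, and Fgfr2 on the minus strand at chr7:130162451-133123350. The annotated Fgfr2 span covers 2961 kb, and the RefSeq starts used for Fgf10 and Fgfr2 lie inside their GENCODE spans. RefSeq promoter windows, 300 bases long on GRCm38.p6, were matched for 8 of the 10 genes, with 2 windows for Fgfr3. Because the treatment was an estrogen, the windows were searched on both strands for its response element (GGTCA and TGACC with 3 bases of any kind between them), for the half-site GGTCA or TGACC that the element contains, for a p63 motif, and for the GC box GGGCGG or CCGCCC. The windows of Fgfr3, Fgf10 and Fgfr2, whose values in sections are given later, are shown with half-sites in capitals.
Fgfr3, chr5:33721474-33721773, plus strand: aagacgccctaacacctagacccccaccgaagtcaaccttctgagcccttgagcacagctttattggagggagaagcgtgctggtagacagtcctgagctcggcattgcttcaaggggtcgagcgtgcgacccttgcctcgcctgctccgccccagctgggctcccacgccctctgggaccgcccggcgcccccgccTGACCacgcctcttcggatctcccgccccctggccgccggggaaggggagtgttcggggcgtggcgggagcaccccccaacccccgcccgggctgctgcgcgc
Fgf10, chr13:118714449-118714748, plus strand: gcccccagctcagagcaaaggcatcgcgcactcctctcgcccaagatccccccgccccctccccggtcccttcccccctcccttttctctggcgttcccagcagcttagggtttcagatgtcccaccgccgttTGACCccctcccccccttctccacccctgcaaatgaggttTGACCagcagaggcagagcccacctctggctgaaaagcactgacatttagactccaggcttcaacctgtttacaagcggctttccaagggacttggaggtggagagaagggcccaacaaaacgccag
Fgfr2, chr7:130266759-130267058, minus strand: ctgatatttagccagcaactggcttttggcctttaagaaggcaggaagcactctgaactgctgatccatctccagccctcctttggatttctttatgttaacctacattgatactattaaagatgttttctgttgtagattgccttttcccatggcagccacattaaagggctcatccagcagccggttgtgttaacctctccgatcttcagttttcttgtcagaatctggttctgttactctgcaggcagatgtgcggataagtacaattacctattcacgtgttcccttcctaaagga
No window of the 8 genes held the full element, which occurred in 0.0700% of 32851 promoters, or the p63 motif, which occurred in 8.36%. Half-sites lay in 3 of 9 windows, against 40.5% of all promoters, with 2 in Fgf10, 1 in Fgfr3 and 1 in Fgf7. GC boxes lay in 6 of 9 windows, against 35.7% of all promoters. The Fgfr3 window above held 4 GC boxes and had 69.7% G and C, and the Fgfr2 window held none and had 43.7%. These matches describe letters and not bound sites.

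Among the ligands, Fgf1, the ligand that binds all FGF receptors, was measured mainly in mesothelial cells, the layer that covers the outer uterine surface. Its level was 262 CPM (95% interval 259 to 266) in the 6866 CO mesothelial cells, which held 95.5% of the Fgf1 UMIs of all CO cells with a cell type. Elsewhere in CO it ran from 7.16 CPM in stromal cells to 42.9 CPM in myocytes, 69.8 CPM in the 67 myeloid cells and 132 CPM (99.9 to 172) in the 22 cells of the Stmn1-hi group. The 4 mesothelial markers summed to 156, 334, 498 and 1927 CPM in these groups, and their part in the Fgf1 levels was not tested. Of these sums the marker Wt1 gave 106 CPM in stromal cells and 117 CPM in myocytes. Wt1 was not confined to mesothelium, with 243 CPM in the Ctla2a group and 239 CPM in CO mesothelial cells. In DES no cell type of 20 cells or more other than mesothelial cells was above 5.39 CPM of Fgf1. In the 3837 DES mesothelial cells Fgf1 was at 122 CPM (119 to 125), a ratio of 0.464 (0.452 to 0.476) to CO. With every cell thinned to 3000 UMIs, 50.2% of CO and 26.9% of DES mesothelial cells had an Fgf1 UMI (81.1% and 62.7% unthinned, at median depths of 10436 and 12329 UMIs). The corresponding share was 3.55% in the CO lymphocyte group and 2.34% in CO epithelial cells (5.91% and 18.6% unthinned, at median depths of 4033 and 23458 UMIs). Each of the 4 mesothelial markers was higher in the CO lymphocyte group than in CO epithelium (Upk3b at 58.7 and 19.8 CPM). That group is therefore no neutral background for Fgf1, and whether CO epithelial Fgf1 exceeded background was not tested.

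Fgf2, basic fibroblast growth factor, was measured in mesothelial and stromal cells. Its level was 106 CPM (104 to 108) in CO mesothelial cells, 67.2 CPM (62.6 to 72.1) in the 1326 CO stromal cells and 159 CPM (155 to 162) in DES mesothelial cells, against 1.93 CPM in CO and 1.198 CPM in DES epithelial cells. The DES to CO ratio of Fgf2 in mesothelial cells was 1.49 (1.45 to 1.54), in the direction opposite to that of Fgf1. After thinning, 25.5% of CO and 34.9% of DES mesothelial and 17.6% of CO stromal cells had an Fgf2 UMI, beside 1.61% of the CO lymphocyte group (60.6%, 76.2%, 41.0% and 2.84% unthinned). Fgf7, keratinocyte growth factor, followed Fgf2 in place: it was at 15.5 CPM in CO mesothelial, 12.5 CPM in CO stromal and 24.96 CPM in DES mesothelial cells, and at 0.36 CPM in CO and 0.49 CPM in DES epithelial cells.

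Fgf10, the mesenchymal ligand needed for budding in many organs, marked a different pair of groups. It was highest in CO stromal cells (38.0 CPM, 34.6 to 41.7) and in the CO group that the authors named for Ctla2a (24.4 CPM, 18.9 to 30.9), and it was at 5.25 CPM in CO mesothelial cells. Of the 969 Fgf10 UMIs in CO cells with a cell type, 446 lay in stromal and 436 in mesothelial cells. After thinning, 10.1% of CO stromal and 7.74% of Ctla2a cells had an Fgf10 UMI (25.1% and 13.1% unthinned), with 0 of 310 in the CO lymphocyte group. DES mesothelial cells were at 1.86 CPM, a ratio of 0.354 (0.287 to 0.434) to CO, and DES epithelial cells had 2 Fgf10 UMIs among 5255 cells. Fgf18, a ligand known for its part in bone and lung growth, was at 12.4 CPM in CO and 23.3 CPM in DES mesothelial cells. DES epithelial cells made up 5255 of the 9701 DES cells with a cell type. Of the UMIs of these 9701 cells, they held 31.6% for Fgf18 and 6.40% or less for each other ligand. Fgf18 was at 3.96 CPM (3.67 to 4.26) in DES epithelium against 1.07 CPM (0.85 to 1.32) in CO epithelium, a ratio of 3.71 (2.96 to 4.71). Thinned shares for Fgf18 were 1.12% of DES and 0.31% of CO epithelial cells (10.9% and 2.90% unthinned), beside 0 of 213 DES and 1 of 310 CO cells of the lymphocyte group, where 0 of 213 allows a share of up to 1.41%.

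Fgfbp1, whose product releases FGFs from the extracellular matrix, was at 27.3 CPM in CO and 25.8 CPM in DES mesothelial cells, a ratio of 0.944 (0.886 to 1.01). Its level in epithelial cells was 2.96 CPM in CO and 2.22 CPM in DES.

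**Figure D1:**
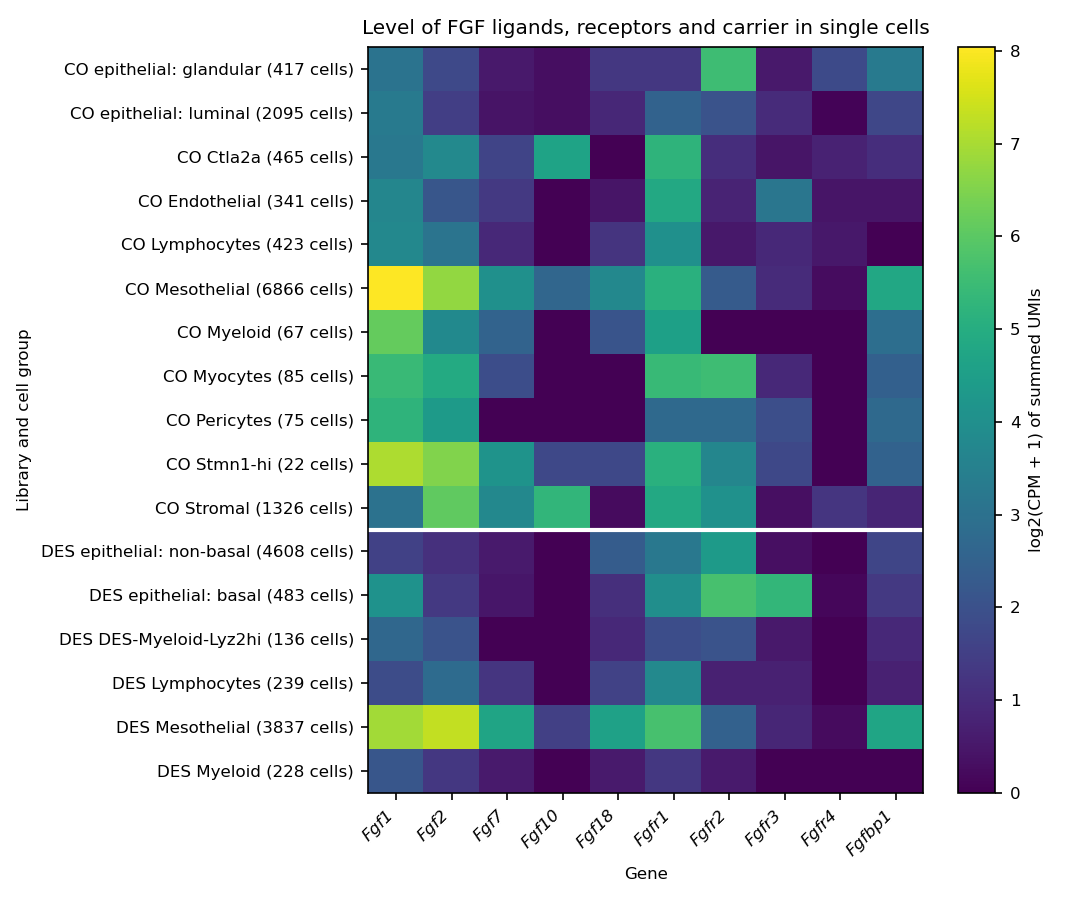
Heatmap of log2(CPM + 1) of summed UMIs for the 10 genes (columns) in each library's groups of at least 20 cells (rows, with cell numbers), with CO above the white line and DES below it; colours are to be read down a column, since levels of different genes are not compared. The ligands Fgf1, Fgf2, Fgf7 and Fgf18 and the carrier Fgfbp1 are bright in the mesothelial rows of both libraries, Fgf10 in CO stromal and Ctla2a cells, Fgfr2 in CO glandular cells, CO myocytes and DES epithelium, and Fgfr3 in DES basal cells.

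The receptors had other sites. Fgfr1, which in many tissues is the mesenchymal FGF receptor, was between 27.8 and 42.0 CPM in CO endothelial, stromal, mesothelial, Ctla2a and myocyte groups. Neighbours in that order had overlapping intervals except stromal cells at 28.1 CPM (25.2 to 31.3) and mesothelial cells at 33.6 CPM (32.4 to 34.9). DES mesothelial cells were at 50.6 CPM (48.9 to 52.4). Epithelial Fgfr1 was at 4.42 CPM (3.96 to 4.91) in CO and 8.69 CPM (8.26 to 9.14) in DES, a ratio of 1.97 (1.75 to 2.22). The thinned share with an Fgfr1 UMI was 1.56% in CO epithelium, below the 4.52% of the CO lymphocyte group, and 2.71% in DES epithelium against 1.88% in DES lymphocyte cells and 0 of 218 DES myeloid cells (unthinned 10.8%, 4.96%, 21.6% and 4.60%). The lymphocyte groups carried mesothelial markers (Upk3b at 58.7 CPM in CO and 36.9 CPM in DES), so neither is a neutral background for Fgfr1. Whether epithelial Fgfr1 exceeded background was not tested.

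Fgfr2, the epithelial receptor for FGF7 and FGF10 in its IIIb form, was at 8.32 CPM (7.70 to 8.99) in CO and 22.3 CPM (21.6 to 23.0) in DES epithelial cells, a ratio of 2.68 (2.47 to 2.91). In CO it was also counted in stromal cells at 15.8 CPM (13.6 to 18.2) and in the 85 myocytes at 45.6 CPM (33.8 to 60.1, 50 UMIs). The lymphocyte groups had 1 Fgfr2 UMI in each library, and after thinning 0 of 310 CO and 0 of 213 DES cells, which allow shares of up to 0.968% and 1.41%. Fgfr3, whose activating mutations cause dwarfism and which is also an epithelial oncogene, was at 7.99 CPM (4.94 to 12.2) in CO endothelial cells and at or below 0.97 CPM in CO epithelial, stromal and mesothelial cells. Fgfr4, best known in liver, stayed at 63 UMIs in all CO and 15 in all DES cells with a cell type.

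As a description with no test, genes whose log2(CPM + 1) followed a member most closely over the 14 library and cell type groups of at least 50 cells were, by Pearson's r, Lgals2, Itgbl1 and Rab6b for Fgf1 (0.96 each), Igfbp6, Dcn and Medag for Fgf2 (0.97 to 0.98), and Yif1a, Sp3 and Aldh1a1 for Fgf7 (0.91 to 0.93). For Fgf10 these were Bmp7 (0.94), Tnfaip6 and Gxylt2, and for Fgf18 Plekha6 (0.92), Akr1b3 and C1qtnf4. Fgfr1 was followed by Rwdd1 (0.91), Sp3 and Gja1, Fgfr2 by Ndufab1 (0.87), Chpt1 and Chd3, and Fgfbp1 by Fam84a (0.96), Myo5b and Gstm5. The groups of a library share its depth and its free RNA, and 6222 genes were compared.

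Within the CO epithelium, Fgfr2 separated glandular from luminal clusters. Clusters 3, 8, 13 and 14, which the authors described as developing or mature gland and which hold 417 cells, had Fgfr2 at 46.2, 53.8, 31.4 and 39.7 CPM. The 10 luminal clusters (2095 cells) lay between 0.80 and 5.10 CPM, and cluster 12, for which the authors proposed a stem cell identity, lay between the groups at 23.8 CPM (17.1 to 32.1). Summed levels were 45.8 CPM (41.4 to 50.5) in gland and 3.15 CPM (2.74 to 3.597) in luminal cells, a ratio of 14.6 (12.3 to 17.3). The thinned share was 13.98% of glandular and 0.626% of luminal cells (54.2% and 8.93% unthinned, at median depths of 17202 and 25654 UMIs). The luminal share was below the limit that the lymphocyte count allows. These clusters were formed from the same cells and genes, so the contrast is a description.

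Among the other members, Fgfr4 had 22 UMIs in glandular and 4 in luminal cells of the CO library, 2.53 and 0.059 CPM, a ratio of 43.1 (14.7 to 172). Fgfbp1 was at 8.96 CPM in gland and 2.25 CPM in lumen, a ratio of 3.97 (2.99 to 5.25). Fgfr1 was at 1.49 and 4.82 CPM, both below the 15.6 CPM of the CO lymphocyte group, which is no neutral background for it. Fgf18 was highest in cluster 12 among CO epithelial clusters, at 6.79 CPM, with 1.98 CPM in cluster 8 as the next.

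In DES epithelium every one of the 16 clusters carried Fgfr2, from 5.07 CPM (3.70 to 6.79) in cluster 5 to 31.1 CPM (26.8 to 35.8) in cluster 11, so the lowest DES cluster was at the level of the highest CO luminal cluster and the highest was at the level of CO gland cluster 13. Cluster 5, which the authors proposed as cancer cells, and cluster 14 had the highest Fgfr1 (18.8 CPM, 16.1 to 21.9, and 23.9 CPM, 18.2 to 30.9) and the lowest Fgfr2 levels (5.07 and 10.3 CPM). The other 14 clusters had Fgfr1 between 3.19 and 10.6 CPM. The DES lymphocyte group had it at 12.8 CPM (7.68 to 19.9) and the DES myeloid group at 1.47 CPM on 3 UMIs. Over the 16 clusters the correlation of the levels of Fgfr1 and Fgfr2 was −0.48 by Pearson's r and −0.16 by Spearman's rho, for clusters that share 1 library. Fgf18 and Fgfbp1 were highest in DES cluster 13, at 10.5 and 9.19 CPM.

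**Figure D2:**
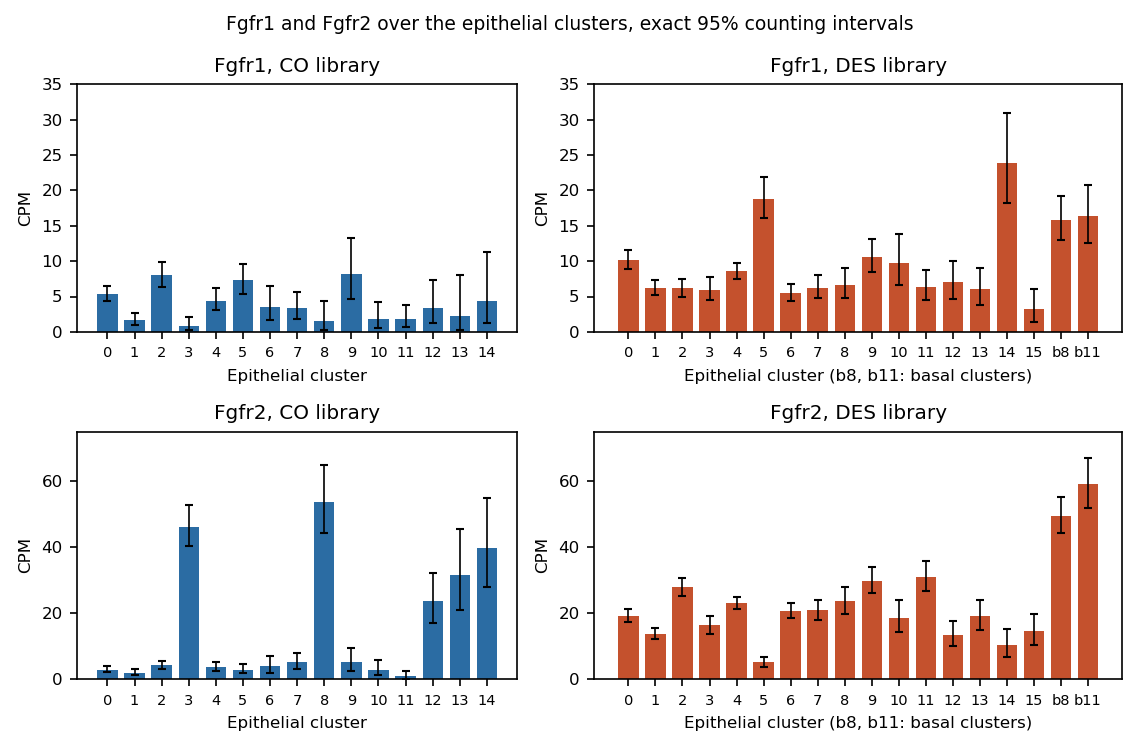
Bars give Fgfr1 (top) and Fgfr2 (bottom) in CPM for each epithelial cluster of the CO library (left, blue) and of the DES library (right, orange), with exact Poisson 95% intervals, and b8 and b11 are the basal clusters of the integrated clustering. Fgfr2 is high in CO clusters 3, 8, 12, 13 and 14 only among CO clusters, lies between 5.07 and 31.1 CPM in the 16 DES clusters, and is at 49.5 and 59.1 CPM in b8 and b11, while Fgfr1 peaks in DES clusters 5 and 14.

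Fgfr3 marked the basal cells of the DES epithelium. By the authors' rule of more than 1 UMI of both Krt14, a basal keratin, and Trp63, the basal cell transcription factor p63, 483 of 5255 DES epithelial cells were basal (9.19%) and 0 of 2583 CO epithelial cells were, which allows a share of up to 0.116%. Fgfr3 was at 39.3 CPM (35.5 to 43.5) in basal cells and 0.24 CPM (0.17 to 0.33) in the 4608 cells of the non-basal clusters, 4 of which also met the basal rule and counted in both groups, a ratio of 161 (116 to 229), and basal cells held 81.0% of the epithelial Fgfr3 UMIs of DES. A further 168 DES epithelial cells lay below the rule and outside those clusters, and they had Fgfr3 at 20.7 CPM (15.5 to 27.0, 53 UMIs) and Fgfr2 at 61.2 CPM (52.0 to 71.5). Of 39863 Krt14 UMIs in DES epithelial cells, 32766 lay in basal cells by the rule and 1410 in the non-basal clusters. The rest lay in these 168 cells, so cells below the rule are not all without basal marker RNA. With these 168 and without those 4, all 4772 DES epithelial cells below the rule were at 0.547 CPM of Fgfr3 (0.441 to 0.672), and the ratio of basal cells to them was 71.9 (57.1 to 91.3), by a grouping added after seeing the data. After thinning, 13.04% of basal and 0.088% of non-basal cells had an Fgfr3 UMI (47.0% and 0.803% unthinned, at median depths of 16093 and 24663.5 UMIs), with 1 of 213 in the DES lymphocyte group. Against the non-basal clusters, basal cells were also higher in Fgf1 (16.2 against 1.96 CPM, ratio 8.24, 6.78 to 9.99) and Fgfr2 (51.3 against 19.95 CPM, ratio 2.57, 2.34 to 2.82) and lower in Fgf18 (1.11 against 4.07 CPM, ratio 0.273, 0.136 to 0.492). Fgfr1 was at 14.8 CPM in basal cells and 8.22 CPM in the non-basal clusters, of which the first lay within and the second near the low end of the interval of the DES lymphocyte group, 12.8 CPM (7.68 to 19.9, 19 UMIs), and the thinned share was 4.55% of basal cells (2.88 to 6.82) and 1.88% of that group (0.514 to 4.74). The DES myeloid group was lower, with Fgfr1 at 1.47 CPM on 3 UMIs. Without thinning, 116 of the 483 basal cells had an Fgfr1 UMI, 279 an Fgfr2 UMI and 66 had both. The single-cell libraries offer no replicate for any of these differences.

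The sections answered whether the members differed between CO and DES uteri across mice. UMIs were summed per section, and edgeR's quasi-likelihood test compared DES with CO. Its p-values were adjusted over all genes tested by the Benjamini-Hochberg method, and an adjusted p under 0.05 was called. The TMM scaling of that test makes its folds differ from ratios of the CPM given beside them. A permutation test of 2 sections against 2 could not go below p = 0.333. Over whole sections, 2 of the 7 members tested were called, against 5.3% of the 14098 genes. Fgf18, Fgfr4 and Fgfbp1 were too low to test, with at most 2, 3 and 35 UMIs in any section.

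Fgfr3 was at 2.96 and 3.63 CPM in CO A and CO B and at 52.7 and 47.5 CPM in DES A and DES B. It was 13.1-fold higher in DES (log2 difference 3.72, SE 0.21, edgeR adjusted p = 0.0141). Without DES A the difference was 3.66 with an adjusted p of 0.0515, and without DES B 3.74 with 0.0604, and over all alternatives the adjusted p ran from 2.91e-25 to 0.0604. Fgfr1 was at 31.1 and 31.0 CPM in CO and 70.0 and 80.5 CPM in DES, 2.10-fold higher (log2 1.07, SE 0.18, edgeR adjusted p = 0.0419). The Fgfr1 call was lost without DES A (1.18, 0.237) and without DES B (0.91, 0.376), when edgeR called 14 and 3 genes in all, and the adjusted p ran from 0.00131 to 0.376 over all alternatives. Fgfr2 was at 37.7 and 40.8 CPM in CO and 47.4 and 49.5 CPM in DES, a log2 difference of 0.10 (SE 0.16, edgeR adjusted p = 0.766).

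Fgf10 was at 3.52 and 4.53 CPM in the CO sections (44 and 50 UMIs) and at 0.88 and 0.30 CPM in the DES sections (8 and 3 UMIs). The log2 difference of −2.97 (SE 0.58) was not called (edgeR adjusted p = 0.0590). DESeq2 gave an adjusted p of 0.00496, edgeR gave 0.0411 without CO A, and the range over all alternatives was 0.00496 to 0.309. In summed sections fewer cells of a type and less RNA per cell cannot be told apart, and the summed CPM of 4 stromal markers was 1318 and 991 in CO and 651 and 412 in DES. Their part in the Fgf10 difference was not tested. For Fgf1, Fgf2 and Fgf7 the CO and DES sections overlapped. Fgf1 stood at 7.52, 2.08, 13.7 and 5.57 CPM in CO A, CO B, DES A and DES B, Fgf2 at 15.8, 5.80, 11.4 and 9.01 CPM, and Fgf7 at 1.92, 3.08, 3.18 and 1.21 CPM.

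Tissue make-up differed between the groups along with these values. The summed CPM of the 3 basal markers Krt14, Krt5 and Trp63 was 3.36 and 159.7 in CO and 9526 and 5644 in DES, that of the 4 muscle markers was 9030 and 9845 in CO and 1827 and 2017 in DES, and that of the 4 myeloid markers was 199 and 453 in CO and 1685 and 873 in DES. Spots with at least 3 basal marker UMIs numbered 0 of 1433 in CO A, 80 of 1834 in CO B, 1252 of 1575 in DES A and 1097 of 1357 in DES B. In CO B those 80 spots had Fgfr3 at 18.1 CPM against 2.45 CPM in its other spots. Spot cluster 10 of CO B, with 17 spots and 6025 CPM of basal markers, had Fgfr3 at 35.6 CPM, while the other 9 clusters of CO B were at or below 12.3 CPM. Over the 18 DES spot clusters of at least 20 spots the log2 levels of Fgfr3 and of the basal markers had a Pearson's r of 0.78 and a Spearman's rho of 0.83, and over the 19 CO clusters 0.079 and 0.056, as a description over clusters that share sections. CO B cluster 10 was below that minimum, and with clusters of at least 10 spots, a minimum added after seeing the data, the values were 0.48 and 0.19 over 20 CO clusters and did not move in DES.

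**Figure D3:**
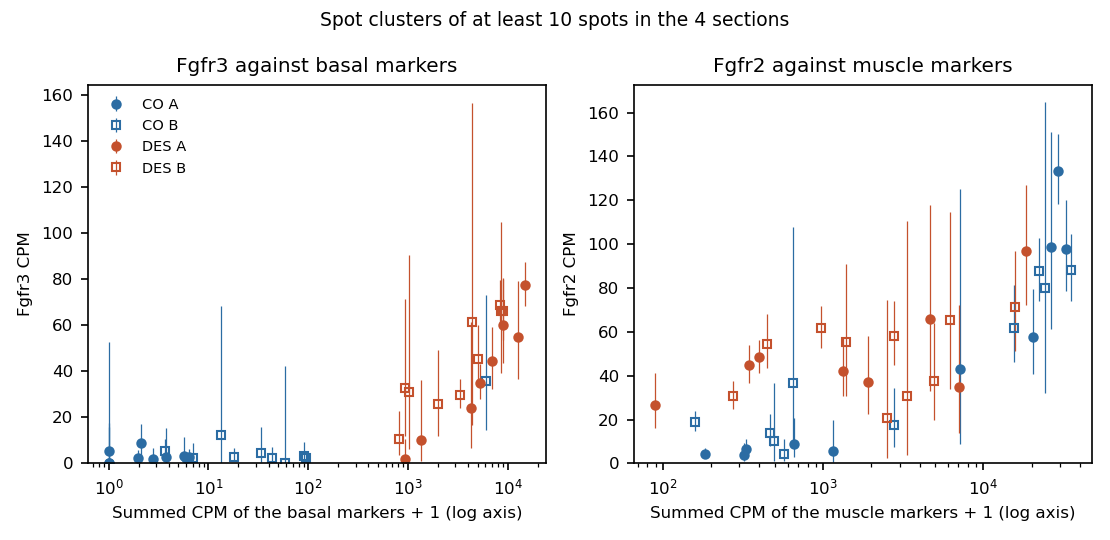
Each point is a spot cluster of at least 10 spots in CO A, CO B, DES A or DES B, with exact Poisson 95% intervals, plotting Fgfr3 CPM against the summed CPM of basal markers plus 1 (left) and Fgfr2 CPM against that of muscle markers plus 1 (right), both x axes being logarithmic. Fgfr3 is under 15 CPM in CO clusters except CO B cluster 10 at 35.6 CPM and rises to 77.5 CPM in DES clusters rich in basal markers, and Fgfr2 reaches 133 CPM in CO A cluster 2, which had 29163 CPM of muscle markers.

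Stromal spots were those of the cluster the authors named stroma in each section (101, 188, 211 and 132 spots in CO A, CO B, DES A and DES B). Of 5 members tested, 1 was called, against 1.47% of 8914 genes. Fgfr3 was at 5.37 and 3.25 CPM in CO and 44.3 and 26.0 CPM in DES (log2 3.05, SE 0.57, edgeR adjusted p = 0.0432). These values rest on 3 UMIs in each CO section and 45 and 9 in the DES sections, and the call was lost without CO B (2.69, 0.123), DES A (2.63, 0.748) or DES B (3.25, 0.0712) and with DESeq2 (adjusted p = 0.0807), the range over all alternatives being 0.000174 to 0.748. The same stromal spots carried basal markers at 0 and 90.0 CPM in CO and 7058 and 1998 CPM in DES, whose part in the Fgfr3 value was not tested. Fgfr2 was at 8.95 and 4.34 CPM in CO and 42.4 and 37.5 CPM in DES (log2 2.60, edgeR adjusted p = 0.0518, range over alternatives 0.000615 to 0.543). The summed CPM of muscle markers in these spots was 654 and 572 in CO and 1325 and 4945 in DES, and its part in the Fgfr2 and Fgfr1 values was not tested. Fgf10 was at 14.3 and 22.8 CPM in CO stroma, on 8 and 21 UMIs, and at 0.98 and 2.89 CPM in DES stroma, on 1 UMI each (log2 −3.60, SE 0.84, edgeR adjusted p = 0.0826, range over alternatives 0.00374 to 0.739). Stromal markers in these spots were at 2222 and 1018 CPM in CO and 1641 and 1106 CPM in DES. Fgf10 did not follow the stromal markers over spot clusters of at least 20 spots. Their log2 levels had a Pearson's r of −0.20 and a Spearman's rho of −0.27 over 19 CO clusters, and 0.15 and 0.14 over 18 DES clusters. The same stromal markers summed to 1957 and 1664 CPM in the muscle-rich CO spots described below, so they did not mark stroma alone. Fgf10 also had few UMIs in DES, so these correlations cannot tell whether Fgf10 lay in stroma. Fgfr1 was at 21.5 and 39.0 CPM in CO and 83.7 and 72.2 CPM in DES (log2 1.27, edgeR adjusted p = 0.167).

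Epithelium-rich spots were the 25% of each section highest in 5 epithelial markers, leaving out spots in the top 25% for 4 muscle markers. Here 2 of 5 members tested were called, against 6.86% of 12298 genes. Fgfr3 was at 2.51 and 2.95 CPM in CO and 56.6 and 46.9 CPM in DES, 15.3-fold higher (log2 3.94, SE 0.26, edgeR adjusted p = 0.0107). Fgfr1 was at 9.85 and 10.95 CPM in CO and 77.3 and 90.2 CPM in DES, 6.56-fold higher (log2 2.71, SE 0.22, edgeR adjusted p = 0.0114). Both receptors stayed called without any 1 section. Fgfr2 was at 4.48 and 18.5 CPM in CO and 48.3 and 48.0 CPM in DES, so the CO sections differed from each other by more than the DES sections did, and the log2 difference of 1.80 (SE 0.60) was not called (edgeR adjusted p = 0.136). It was 1.11 with an adjusted p of 0.0127 without CO A and 3.11 with 0.000998 without CO B, and ran from 0.000998 to 0.364 over all alternatives. Epithelial markers in these spots were at 4906 and 3498 CPM in CO and 4188 and 4932 CPM in DES, and basal markers at 4.84 and 171 CPM in CO and 10257 and 6336 CPM in DES. Myeloid markers were at 116 and 221 CPM in CO and 1526 and 597 CPM in DES, and muscle markers at 214 and 199 CPM in CO and 298 and 427 CPM in DES. The part of these markers in the receptor values was not tested. In the single cells, Fgfr1 was lower than in these DES spots, at 8.69 CPM in DES epithelial and 14.8 CPM in DES basal cells. CO epithelial cells were at 4.42 CPM, and the highest DES epithelial cluster was at 23.9 CPM. DES myeloid cells had Fgfr1 at 1.47 CPM on 3 UMIs and no Fgfr3 UMI. The 136 DES myeloid cells named for high Lyz2 had 6 Fgfr1 UMIs and 1 Fgfr3 UMI. The DES lymphocyte group had Fgfr1 at 12.8 CPM and 1 Fgfr3 UMI. Which cells gave the Fgfr1 of the DES spots was not tested. Fgf1 (10.6 and 2.32 CPM in CO, 15.8 and 4.75 CPM in DES) and Fgf2 (7.52 and 1.47 CPM in CO, 4.29 and 3.63 CPM in DES) overlapped between groups.

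Muscle-rich spots were chosen the same way from 4 muscle markers. Of 4 members tested 1 was called, against 6.33% of 11166 genes. Fgfr3 was at 3.02 and 3.14 CPM in CO and 20.5 and 32.1 CPM in DES (log2 2.80, SE 0.43, edgeR adjusted p = 0.0130). The call was lost without DES B (2.40, 0.118) and with regions of the top 15% (2.03, 0.150), and the adjusted p ran from 9.10e-07 to 0.150 over all alternatives. Basal markers in these spots summed to 1.13 and 8.24 CPM in CO and 3819 and 2777 CPM in DES, and their part in the Fgfr3 value was not tested. Fgfr2 was at 119 and 88.3 CPM in CO and 76.5 and 66.9 CPM in DES, a log2 difference of −0.82 (SE 0.25) that was not called (edgeR adjusted p = 0.104, range over alternatives 0.000776 to 0.668). Fgfr1 was at 71.0 and 53.4 CPM in CO and 79.2 and 99.6 CPM in DES (log2 0.24, edgeR adjusted p = 0.676). Fgf2 was at 17.8 and 7.46 CPM in CO and 20.5 and 23.2 CPM in DES (log2 0.51, edgeR adjusted p = 0.588, range over alternatives 0.0391 to 0.971). Muscle markers were at 32097 and 32023 CPM in these CO spots and 11937 and 9993 CPM in the DES spots, so the same share of spots held less muscle RNA in DES.

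**Figure D4:**
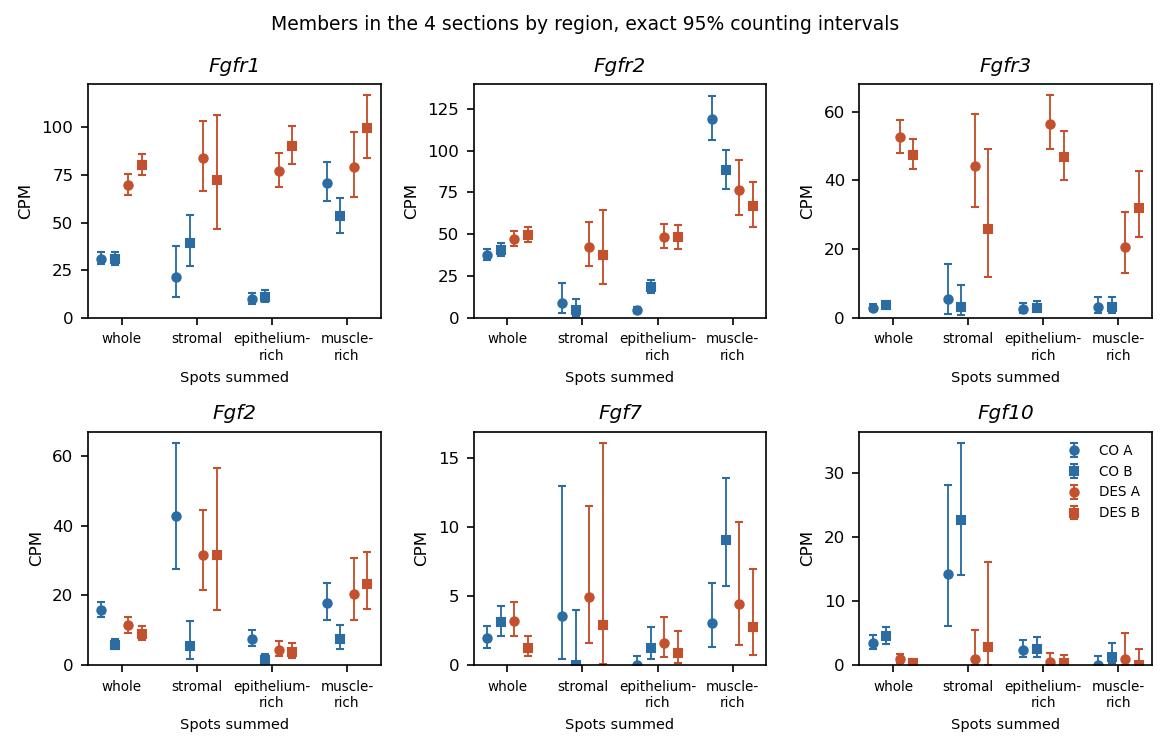
Points give CPM with exact Poisson 95% intervals for Fgfr1, Fgfr2, Fgfr3, Fgf2, Fgf7 and Fgf10 in CO A and CO B (blue) and DES A and DES B (orange), over whole sections and over stromal, epithelium-rich and muscle-rich spots. Fgfr3 lies above CO in both DES sections in every region, Fgfr1 does so most widely in epithelium-rich spots (77.3 and 90.2 against 9.85 and 10.95 CPM), Fgfr2 is highest in CO muscle-rich spots (119 and 88.3 CPM), and Fgf10 is highest in CO stromal spots (14.3 and 22.8 CPM).

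Where a member lay within a section was tested by comparing epithelium-rich with muscle-rich spots of the same sections, with section as a block. In CO, 4 of 6 members tested were called, against 54.8% of 12882 genes, and each of the 4 was lower in epithelium-rich spots. Fgfr2 was 10.97-fold lower there (log2 −3.45, SE 0.43, edgeR adjusted p = 8.13e-05), Fgfr1 6.54-fold lower (log2 −2.71, SE 0.21, edgeR adjusted p = 2.90e-06), Fgf7 lower by a log2 difference of −3.49 (SE 0.74, edgeR adjusted p = 0.00284) and Fgf2 by −1.71 (SE 0.39, edgeR adjusted p = 0.00415). Without 1 section the log2 difference ran from −4.80 to −2.39 for Fgfr2 and from −2.93 to −2.42 for Fgfr1. It ran from −6.48 to −2.94 for Fgf7, a low ligand, and from −2.45 to −1.31 for Fgf2. Fgf1 had a log2 difference of 1.27 (edgeR adjusted p = 0.0612, range over alternatives 0.00637 to 0.727). In the single cells, Fgfr2 was at 45.6 CPM in CO myocytes, 45.8 CPM in CO glandular clusters and 3.15 CPM in CO luminal cells. Over the 19 CO spot clusters of at least 20 spots the log2 levels of Fgfr2 and of muscle markers had a Pearson's r of 0.89 and a Spearman's rho of 0.86, against 0.45 and 0.43 over the 18 DES clusters.

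In DES sections the same contrast called 1 of 6 members, against 32.3% of genes. Fgf2 was lower in epithelium-rich spots (log2 −2.65, SE 0.41, edgeR adjusted p = 0.000811). Fgfr2 (−0.77, edgeR adjusted p = 0.167) and Fgfr3 (0.76, edgeR adjusted p = 0.0582) were not called. Both were called when CO A or CO B was left out of the shared fit. Over all 9 settings Fgfr2 was called in 2, with log2 differences from −0.96 to −0.59. Fgfr3 was called in 4 of the 9, with log2 differences from 0.43 to 1.68. Fgfr1 had a log2 difference of −0.29 (edgeR adjusted p = 0.255). The difference of the contrast between DES and CO, tested as an interaction, called 2 of 6 members, against 11.4% of genes. It was 2.42 for Fgfr1 (SE 0.28, edgeR adjusted p = 0.00106) and 2.68 for Fgfr2 (SE 0.58, edgeR adjusted p = 0.0160), and both calls held without any 1 section. The difference then ran from 2.15 to 2.65 for Fgfr1 and more widely, from 1.64 to 4.05, for Fgfr2. The median of all genes in that test was −0.11 with TMM scaling. Epithelium-rich DES spots contained basal markers and muscle-rich DES spots contained 968 and 1356 CPM of epithelial markers, against 298 and 236 CPM in CO, so the regions were less separate in DES and the part of this in the interaction was not tested.

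The wider FGF pathway was read from a list of 59 genes of other ligands, co-receptors, heparan sulphate enzymes, adaptors, feedback inhibitors and targets, with calls by the same edgeR tests. Over whole sections 1 of 42 tested was called (2.38%), beside 5.3% of all genes. It was Sdc3, a cell-surface heparan sulphate proteoglycan, which was lower in DES (log2 −1.35, edgeR adjusted p = 0.0272). Muscle markers were also lower in the DES sections, and their part in the Sdc3 difference was not tested. The list's median was 0.04 beside −0.01 for all genes. The count was 7 without CO A, 8 without CO B, 0 without DES A or without DES B, 4 with DESeq2, and 2 without the low-count filter or with a block by section letter. In stromal spots 0 of 27 were called by edgeR, beside 1.47% of all genes. Without adjustment 1 gene, the feedback inhibitor Spred2, had an edgeR p under 0.05, and DESeq2 called 0 of 27 and had 0 without adjustment. In epithelium-rich spots 2 of 31 were called (6.45%), both higher in DES, beside 6.86% of all genes called in either direction. Etv1, an ETS factor that FGF signalling can induce, was at 1.97 and 1.26 CPM in CO and 19.0 and 34.6 CPM in DES (13.2-fold, adjusted p = 0.0232), and the proteoglycan gene Sdc4 was at 35.8 and 52.0 CPM in CO and 128 and 114 CPM in DES (log2 1.18, adjusted p = 0.0478). The count was 7 without CO A, 10 without CO B, 1 without DES A and 0 without DES B, and 4 with DESeq2, without the low-count filter or with a block by section letter. Muscle-rich spots held epithelial markers at 298 and 236 CPM in CO and 968 and 1356 CPM in DES. Muscle markers there were at 32097 and 32023 CPM in CO and 11937 and 9993 CPM in DES. The part of these markers in the pathway differences of those spots was not tested. Called in muscle-rich spots were Gpc3 (log2 2.77), Hs6st1 (1.38) and Sdc1 (1.17) as higher and Sdc3 (−1.12) as lower in DES. They were 4 of 33 tested (12.1%), beside 6.33% of all genes. That count was 8 without CO A, 7 without CO B, 1 without DES A, 0 without DES B and 0 with regions of the top 15%.

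Between epithelium-rich and muscle-rich spots, 22 of 37 pathway genes were called in CO, 6 higher and 16 lower in epithelium-rich spots, beside 54.8% of all genes. The feedback inhibitors Dusp6, an ERK phosphatase, and Spred2 were higher (log2 3.25 and 2.36), as was the heparan sulphate 6-O-sulphotransferase gene Hs6st1 (2.32), and Sdc3 (−3.52), the extracellular sulphatase gene Sulf1 (−2.04) and the glypican gene Gpc4 (−2.34) were lower. In DES 11 of 37 were called, 3 higher and 8 lower, beside 32.3% of all genes, among them Sdc3 (−2.69), Sulf1 (−1.94), Sulf2 (−1.21) and Fgf12, which encodes an intracellular FGF homologue (−3.85), as lower and Sdc1 (1.203) and Hs6st1 (1.03) as higher. The CO count lay between 15 and 22 over all alternatives. The DES count was 21 without CO A or without CO B, 5 without DES A, 7 without DES B and 7 with DESeq2. Of the 13 other secreted ligands of the list, 1 was high enough to be tested over whole sections, Fgf9 (log2 −0.997, not called), and 0 in the regions.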

How the data were processed

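The authors dissociated uterine horns with trypsin and made single-cell libraries with the 10x Genomics Chromium 3′ v3 kit, and placed frozen sections of 4 mice on 1 Visium slide. Per the labels they used bcl2fastq 2.20.0.422, Cell Ranger 3.0.1 and Space Ranger 1.2.2 with mm10. Their methods name DropletUtils for barcode swapping and scran for removing doublets, and no further caller was run here. The deposited tables hold raw UMI counts per gene and cell or spot, and the deposited metadata gave cell types and clusters. No columns of per-sample values were left unused, and 350 cells named in the metadata had no counts. A share of 0 was given the limit that 3 cells would give, and CPM and ratios have exact 95% counting intervals, which are not errors between mice.

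Cells were grouped by the authors' annotation, CPM was taken from summed counts, and shares of cells were compared after thinning each cell to 3000 UMIs. Section sums were tested with edgeR 4.0.16 (TMM, filterByExpr, quasi-likelihood, adjusted p under 0.05) in R 4.3.3, with DESeq2 1.42.0 as an alternative. The SE is the log2 difference divided by the square root of F. Code was tested on simulated data. Each total per cell and spot equalled the deposited metadata. Members and gene lists were chosen with earlier results of these data known. The named genes are all members, up to 6 called pathway genes of smallest p per comparison, 3 most similar genes per member, and markers. Samples of a group are separate mice in sections and single pools in cells.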

Additional observations from a re-analysis of the deposited data

Results flagged for a closer look

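The contrast between epithelium-rich and muscle-rich spots differed between DES and CO sections, by edgeR's interaction test with adjustment over all genes, for 2 of 6 members and 6 of 37 pathway genes (16.2%), beside 11.4% of all 12882 genes. The log2 difference of the contrast, DES minus CO, was 2.42 for Fgfr1 (adjusted p = 0.00106) and 2.68 for Fgfr2 (adjusted p = 0.0160), the latter running from 1.64 to 4.05 without 1 section. For the pathway genes it was 2.40 for Etv1, 2.10 for Gpc4, 1.17 for Gpc1, −1.78 for Spred1, −1.48 for Spred2 and −1.30 for Hs6st1, with edgeR adjusted p-values from 0.0109 to 0.0402. The regions were less separate in DES, where muscle-rich spots held 968 and 1356 CPM of epithelial markers, against 298 and 236 CPM in CO. The part of this in these differences was not tested. The count of 6 pathway genes was 11 without CO A, 12 without CO B, 5 without DES A, 2 without DES B, 3 with DESeq2, 11 without the low-count filter and 4 with regions of the top 15%. No group had 4 or more samples, so no sample could be checked for standing apart from its group by that measure.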

How the results depend on the processing

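Counts of members called by edgeR over whole sections ranged from 0 to 3 when 1 section was left out, and 1 was called with a replicate block by section letter (Fgfr1 then had an adjusted p of 0.0764), beside 2 in the report. In stromal spots the count was 0 with DESeq2, 3 without the low-count filter, 3 with the replicate block and 0 to 2 without 1 section, beside 1. In muscle-rich spots it was 2 without the filter, 0 with regions of the top 15% and 0 to 2 without 1 section, beside 1. In the DES contrast of regions it was 2 without the filter, 2 with the top 15% regions and 1 to 4 without 1 section, beside 1. The counts for epithelium-rich spots, for the CO contrast and for the interaction stayed within 1.5 times of the report under all their alternatives. Section letters did not pair the samples (correlations of A minus B between −0.025 and 0.090), and the replicate block moved no other count of members beyond 1.5 times, while pathway genes called went from 1 to 2 in whole sections and from 2 to 4 in epithelium-rich spots. The median of all genes in the interaction test moved from −0.11 with TMM to −0.035 with DESeq2 size factors.

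Directions turned for low ligands only, with log2 differences that ran, over the sections left out, from −0.0032 (without DES A) to 2.002 for Fgf1, −0.87 to 0.63 (without CO A) for Fgf2 and −1.21 to 0.10 (without DES B) for Fgf7 in whole sections. They ran from −0.50 (without CO B) to 2.40 for Fgf2 in stromal spots, from −0.72 (without DES A; −0.35 without CO B) to 1.87 for Fgf1 and from −1.23 to 1.15 (without CO A) for Fgf2 in epithelium-rich spots, and from −0.99 to 0.31 (without CO A) for the Fgf1 interaction. A section left alone in its group is assumed to vary like the others. Of 150 single-cell levels 40 were at least 10 CPM, and 21 of 100 after leaving out cells with 3 or more UMIs of another class's markers, which removed groups and kept 78 of 6866 CO mesothelial cells. With keratins 7, 8 and 18, which mesothelium also carries, not counted (an alternative chosen after seeing the data), 4694 were kept and Fgf1 was at 253 CPM. The causes were not tested, and 2 sections a group and low UMIs of ligands set the limits.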

Other observations

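Some genes of the pathway list, picked here after their values were seen, showed levels in the single cells that no comparison above covers. Fgf9, a ligand of the same class of secreted factors, was at 171 CPM (168 to 174) in CO and 132 CPM (129 to 135) in DES mesothelial cells, at 65.4 CPM (60.2 to 71.0) in CO glandular clusters, and at 4.22 CPM (3.74 to 4.73) in CO luminal clusters. In DES basal cells Fgf9 was at 2.02 CPM, against 10.3 CPM in non-basal clusters. The proteoglycan gene Sdc1 was at 269 CPM (259 to 279) in DES basal cells and 33.1 CPM (32.3 to 34.0) in DES non-basal clusters.

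In the epithelium of the single-cell libraries, which have no replicate, the counting intervals of the 5 listed transcriptional targets lay lower in DES than in CO. Of the 8 listed feedback inhibitors in the table, 5 lay lower and 2 higher in DES, the latter being Spred2 (36.7 CPM in CO and 52.1 CPM in DES) and Il17rd (2.45 and 7.16 CPM). Of the 12 decoy receptors, co-receptors and carriers 7 lay higher and 0 lower, of the 8 heparan sulphate enzymes 4 lay higher and 3 lower, of the 8 signal adaptors 2 lay higher and 5 lower, of the 11 other secreted ligands 1 lay higher and 1 lower, and of the 4 intracellular FGF homologues 0 lay apart in either direction. Of all 21614 genes with a UMI in either epithelium, 23.0% lay lower and 33.9% higher by the same measure. Among the inhibitors and targets that lay lower, the ERK phosphatase gene Dusp6 was at 150 CPM in CO and 28.3 CPM in DES, Etv5 at 18.8 and 2.91 CPM, and Spry4 at 11.8 and 0.278 CPM. In epithelium-rich spots Dusp6 was at 171 and 48.0 CPM in CO A and CO B and 44.3 and 82.1 CPM in DES A and DES B (log2 −1.10, edgeR adjusted p = 0.358), and Etv5 at 17.7 and 4.63 CPM in CO and 5.36 and 5.86 CPM in DES (log2 −1.31, edgeR adjusted p = 0.297). Spry4 in these spots was at 4.12 and 1.05 CPM in CO and 1.61 and 1.40 CPM in DES. The CO B values of Dusp6 and Etv5 lay within or near the DES range. Both log2 differences had the direction seen between the libraries and neither was called. With 2 sections a group, these tests cannot settle whether the sections share that difference. Etv1 went the other way in those spots, as given above.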
